A study of Mus musculus with 15 samples.

Results

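The genes described here are 7 nuclear receptors and 3 targets of the liver X receptors (LXRs), chosen by name: Nr1h2 (LXRβ), Nr1h3 (LXRα), Rxra, Pparg, Nr4a1, Nr4a2, Nr4a3, Abca1, Abcg1 and Mylip. All 10 have a row among the 19456 genes of the count table and all 10 were among the 15802 genes with enough reads to test. Transcripts were measured by strand-specific mRNA sequencing of 15 libraries of sorted cells from adult male wild type C57BL/6 mice, with no transgene and no treatment in any group. Macrophages of the small intestine were sorted as negative for both markers (Tim-4-CD4-, here double negative or DN), as positive for CD4 alone (Tim-4-CD4+, single positive or SP) and as positive for both (Tim-4+CD4+, double positive or DP), on 4 occasions each and from 3 pooled mice per library, and Ly6Chi monocytes of the blood on 3 occasions, from 3 pooled mice, or 4 for replicate 2. The question addressed by the comparisons is how the surface markers Tim-4 and CD4 divide gut macrophages, with the circulating precursor as the outside reference. Macrophages were gated as CD64+, MHCII+ and Ly6C- after enzymatic digestion of the gut, whereas blood was not digested, so tissue and digestion cannot be told apart in any comparison with monocytes.

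Nuclear receptors are transcription factors of which many are switched by small lipophilic ligands. LXRα and LXRβ bind oxysterols, pair with a retinoid X receptor (RXR) on DNA, and switch on genes that move cholesterol out of the cell: Abca1 exports cholesterol to lipid-poor apolipoprotein A-I, Abcg1 exports it to mature lipoprotein particles, and Mylip encodes a ubiquitin ligase (IDOL) that removes lipoprotein receptors from the cell surface. PPARγ, which also pairs with RXR, responds to fatty acid ligands and is known in macrophages for lipid handling and alternative activation, while the 3 NR4A receptors need no classical ligand and are induced quickly, as immediate early genes, by many stimuli. In macrophages the LXRs are best known for coupling the uptake of dead cells and lipoproteins to cholesterol export.

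The 7 receptors and 3 targets lie on 7 chromosomes of GRCm38, and only 1 of them shares exon sequence with another annotated gene. Nr1h2 is at chr7:44549616-44553951, Nr1h3 at chr2:91184061-91202834, Rxra at chr2:27676440-27762957, Pparg at chr6:115360951-115490399, Nr4a1 at chr15:101254269-101274795, Nr4a2 at chr2:57106830-57124003, Nr4a3 at chr4:48045153-48086447, Abca1 at chr4:53030787-53159895, Abcg1 at chr17:31057675-31117988 and Mylip at chr13:45389742-45412022. Nr1h3 shares 34 exon bases, 1.35% of its exon sequence, with Gm13783 on the same strand.

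The promoters of the 3 NR4A genes are shown because they share a sequence feature, whose part in their expression was not tested. In the 250 bases before the RefSeq start of Nr4a1, Nr4a2 and Nr4a3 (GRCm38.p6), the half-site of the cAMP response element, searched as TGACG on both strands, occurs 4 times in each gene. No window of the other members for which RefSeq gives one holds it, and 17.8% of all 32851 RefSeq windows of this length hold it at least once and 0.137% at least 4 times. The full palindrome TGACGTCA, which contains the half-site on each strand, is in none of the members' windows and in 1.55% of all windows. Capitals mark the half-site, read as TGACG on the gene's strand or as CGTCA where it lies on the opposite strand. Nr4a1 is chr15:101266596-101266845 on the plus strand, with 4 half-sites on the opposite strand, Nr4a2 is chr2:57124004-57124253 on the minus strand, with 2 on each strand, and Nr4a3 is the part of its window before the first annotated exon, chr4:48045055-48045152 on the plus strand, which holds 3 of its 4 half-sites.
Nr4a1: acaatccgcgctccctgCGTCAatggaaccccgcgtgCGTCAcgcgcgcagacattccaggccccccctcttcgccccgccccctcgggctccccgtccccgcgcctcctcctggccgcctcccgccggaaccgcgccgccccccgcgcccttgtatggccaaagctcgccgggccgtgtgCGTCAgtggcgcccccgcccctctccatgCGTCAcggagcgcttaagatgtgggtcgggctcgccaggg
Nr4a2: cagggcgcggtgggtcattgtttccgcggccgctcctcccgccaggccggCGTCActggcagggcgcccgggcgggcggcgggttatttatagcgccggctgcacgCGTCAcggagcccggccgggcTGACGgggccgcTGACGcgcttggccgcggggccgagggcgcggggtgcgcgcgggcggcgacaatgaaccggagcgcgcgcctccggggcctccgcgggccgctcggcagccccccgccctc
Nr4a3: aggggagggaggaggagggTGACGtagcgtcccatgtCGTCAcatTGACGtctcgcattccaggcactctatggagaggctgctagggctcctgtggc

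Rxra is shown because the window before its second RefSeq start holds the monomer site that NR4A receptors are known to bind, AAAGGTCA, in capitals below. The window is chr2:27709042-27709291 on the plus strand, and the site begins 50 bases before the start. The window before the first start of Rxra does not hold this site. On either strand, 1.34% of all windows hold it. It contains the nuclear receptor half-site AGGTCA, which 14% of windows hold. A match of letters describes the sequence and was not measured as a bound site. Use of this start, and any action of NR4A receptors on Rxra, was not tested.
Rxra: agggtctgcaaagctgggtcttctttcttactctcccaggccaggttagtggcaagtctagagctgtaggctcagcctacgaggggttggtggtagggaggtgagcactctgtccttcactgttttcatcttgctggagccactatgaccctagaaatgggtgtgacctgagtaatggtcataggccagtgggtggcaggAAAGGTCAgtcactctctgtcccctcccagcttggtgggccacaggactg

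The libraries held 39388763 to 151510641 counted reads (median 63249039), so sampling error was small for every member except in monocytes for Nr4a2 and Nr4a3. The sorted cells carried the transcripts of their labels: Timd4, encoding Tim-4, averaged 355 CPM (counts scaled to a library of 1e+06 reads, with TMM factors) in DP macrophages and at most 1.70 CPM elsewhere, Cd4 averaged 531 and 816 CPM in the CD4+ subsets against 22.9 CPM in DN macrophages, and Ly6c2 averaged 1090 CPM in monocytes against at most 1.72 CPM in macrophages. Monocyte libraries also held markers of Ly6Clow monocytes, such as Ace at 735 CPM and Spn at 295 CPM, and C1qa was at 2.31 CPM there against 3460 to 4070 CPM in macrophages. Replicate 1 of the DP macrophages stood apart: its median gene of at least 8000 exon bases (2062 genes) was 0.34 below the mean of its subset on the log2 scale and its median gene under 2000 exon bases (1696 genes) was 0.25 above it, whereas in the other macrophage libraries these medians lay between -0.10 and 0.16 and between -0.08 and 0.07. Without that library, 9 members were called against monocytes in place of 8, 4 against SP in place of 3 and 7 against DN in place of 6, the added calls being Abcg1 in the first and Mylip in the others.

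Between gut macrophages and blood monocytes most of the 10 genes differed, with higher Nr1h3, Pparg, Nr4a1, Nr4a2, Nr4a3, Abca1 and Mylip in each macrophage subset. Adjusted p-values are from edgeR's quasi-likelihood test over all 15802 genes, and a gene is called when its adjusted p is under 0.05. Against monocytes, DN macrophages had 7 members higher and 1 lower, in a comparison where 65.4% of all genes tested were called, 37.3% higher and 28.1% lower. SP macrophages had 7 higher and 2 lower beside a background of 69.8%, 39.1% higher and 30.7% lower. DP macrophages had 8 higher and none lower beside 70.9%, 39.5% higher and 31.3% lower. The share of members called in either direction was thus near that of the whole transcriptome. The members' median log2 fold changes against monocytes were 1.51, 1.11 and 1.26 in that order of subsets, beside medians of 0.08, 0.11 and 0.10 over all genes. The libraries of the populations did not overlap for 8, 8 and 7 members, beside 67.6%, 70.1% and 68.7% of all genes. The 3 comparisons share the same monocyte libraries, and in bulk RNA fewer cells of a type and less RNA per cell cannot be told apart.

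Between the macrophage subsets some members differed, in both directions, and Nr1h2, Pparg, Abca1 and Mylip were called in none of the 3 comparisons. SP against DN macrophages had Rxra higher and Nr4a1 and Nr4a2 lower, 3 members where 10.1% of all genes were called, 4.52% higher and 5.53% lower. DP against SP macrophages had Rxra and Abcg1 higher and Nr4a2 lower, again 3, beside 3.41% of all genes, 2.07% higher and 1.34% lower. DP against DN macrophages had Nr1h3, Rxra and Abcg1 higher and all 3 NR4A genes lower, 6 members beside 23.1% of all genes, 11.3% higher and 11.9% lower. Libraries did not overlap for 3, 3 and 6 members, beside 19.1%, 9.63% and 26.4% of all genes. The members' median log2 fold changes were -0.12, 0.06 and 0.11, beside medians near 0 over all genes. The comparisons between subsets share their libraries in pairs, so their counts are not independent.

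**Figure D1:**
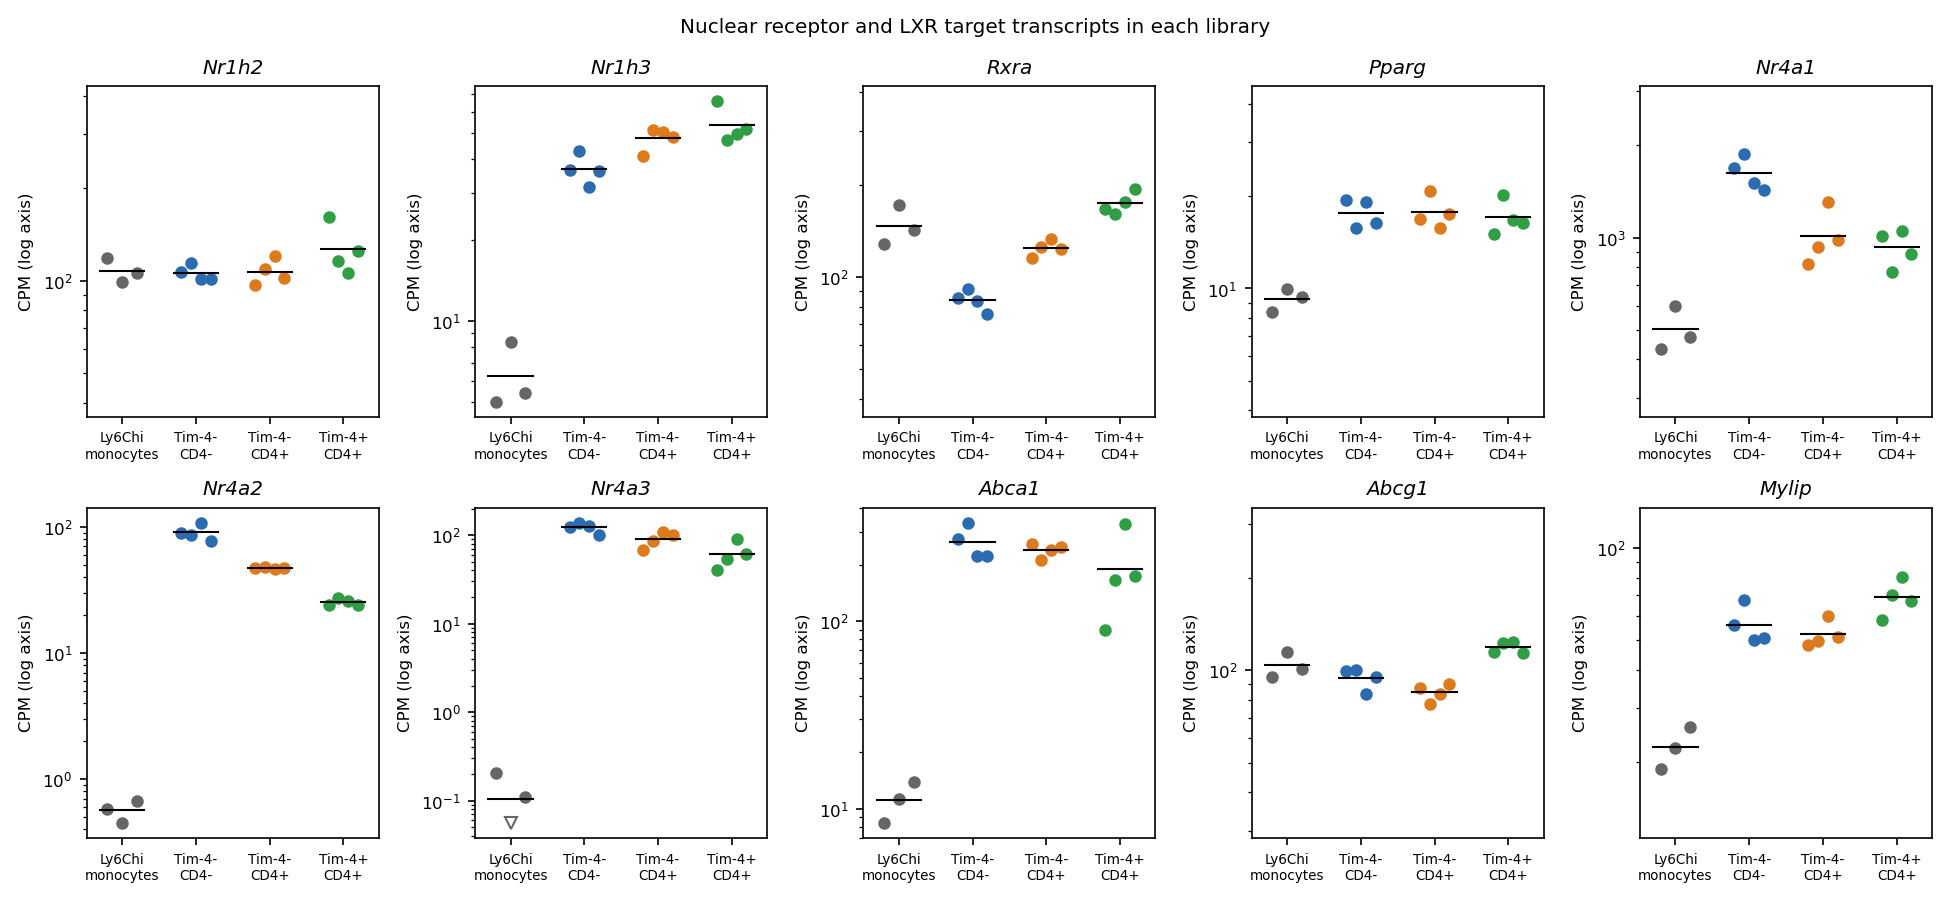
CPM of each of the 10 genes (log axis) in every library of the 4 populations, with points for libraries and a line for the mean; the open triangle is the monocyte library with 0 Nr4a3 counts, drawn below the lowest value. Nr4a2 steps down from 77.3 to 108 CPM in Tim-4-CD4- macrophages to 24 to 27.2 CPM in Tim-4+CD4+ macrophages, while Rxra steps up from 75.9 to 91 CPM to 160 to 193 CPM.

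**Figure D2:**
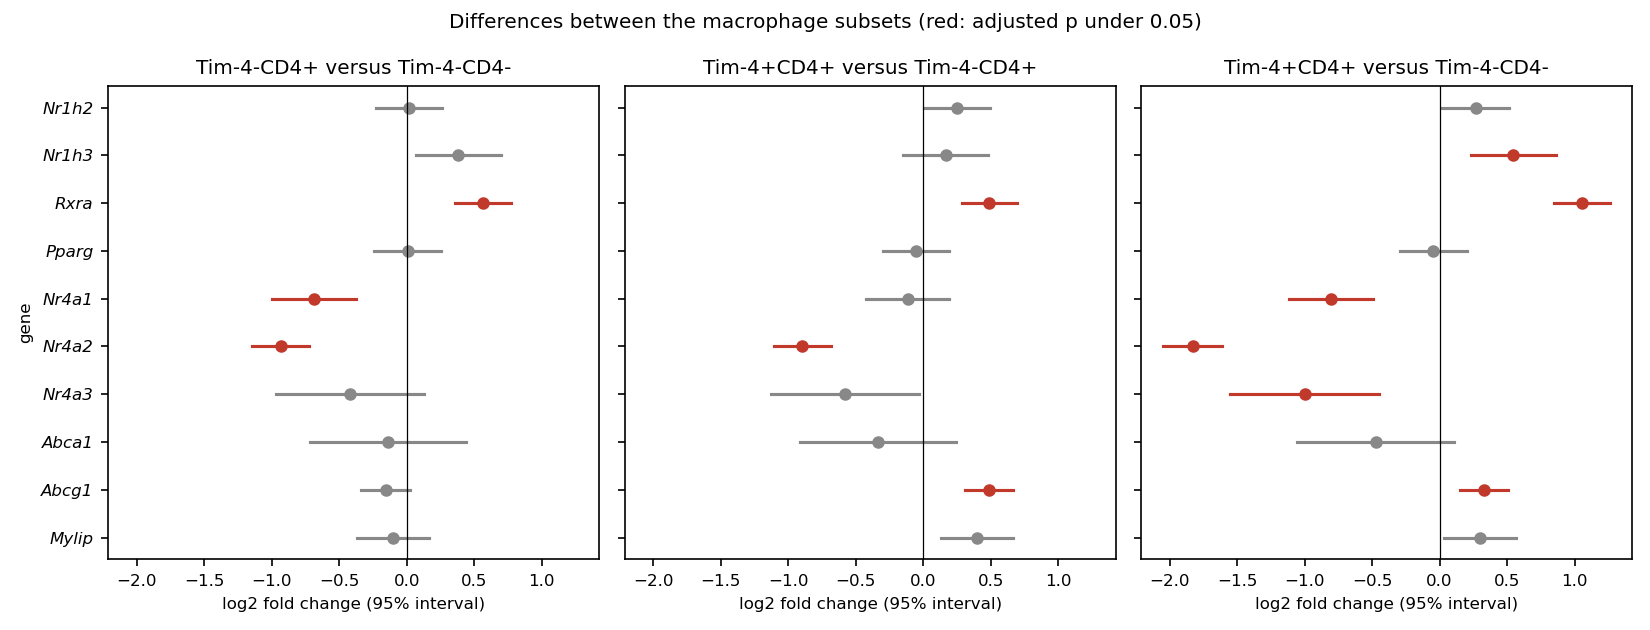
Log2 fold changes with 95% intervals of the 10 genes in the 3 comparisons between macrophage subsets, red where the adjusted p is under 0.05. The points of the NR4A genes lie to the left of 0 in each panel and those of Rxra to the right. The intervals of Nr4a1 in Tim-4+CD4+ against Tim-4-CD4+ and of Nr4a3 in Tim-4-CD4+ against Tim-4-CD4- macrophages span 0, as does every Pparg interval.

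LXRα was the LXR that separated macrophages from monocytes. Nr1h3 was 5.01, 8.33 and 5.41 CPM in the 3 monocyte libraries. It was 36.5, 42.9, 31.6 and 36 CPM in DN macrophages, 41.2, 51.2, 50.6 and 48.4 CPM in SP macrophages and 65.8, 47.2, 49.7 and 52 CPM in DP macrophages. All macrophage libraries lay above the monocytes, and the DP libraries all lay above the DN libraries. Relative to monocytes the means were 5.88-fold, 7.66-fold and 8.60-fold higher (log2 2.55 ± 0.18 SE, 2.93 ± 0.18 and 3.10 ± 0.18, adjusted p 1.8e-09, 3.1e-10 and 1.5e-10). Among subsets, DP exceeded DN by 0.55 ± 0.15 on the log2 scale (adjusted p 0.013). The highest DP value, 65.8 CPM, was in replicate 1, the library high in short transcripts, and Nr1h3 has 2515 exon bases. This difference was called in all 22 alternative analyses, at 0.44 to 0.64, with adjusted p-values up to 0.049. The neighbouring steps, 0.38 ± 0.15 from DN to SP (adjusted p 0.13) and 0.17 ± 0.15 from there to DP (adjusted p 0.64), did not pass the threshold.

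LXRβ transcripts did not pass the test in any comparison. Nr1h2 was 119, 98.9 and 106 CPM in monocytes, 107, 114, 101 and 101 CPM in DN macrophages, 96.5, 109, 120 and 102 CPM in SP macrophages and 161, 116, 106 and 125 CPM in DP macrophages. The ranges of all 4 populations overlapped, and the highest value, 161 CPM, was in DP replicate 1. The largest difference, 0.27 ± 0.12 on the log2 scale between DP and DN macrophages (95% interval 0.02 to 0.51, adjusted p 0.11), passed the threshold without DP replicate 3 (0.36). Against monocytes the difference was -0.03 in DN macrophages (95% interval -0.30 to 0.23) and -0.02 in SP macrophages (-0.28 to 0.25). In DP macrophages it was 0.24 (-0.03 to 0.50, adjusted p 0.10), and 3 of 22 alternative analyses called it, with values of 0.29 to 0.36. Per kilobase of exon, Nr1h2 stood at 32.2 CPM in monocytes and Nr1h3 at 2.49, and in DP macrophages at 37.9 and 21.4, so that LXRβ transcripts were the more abundant in each population and by much less in macrophages.

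The ratio of the 2 LXR transcripts within a library does not depend on depth or scaling, and it separated monocytes from macrophages. The log2 ratio of Nr1h3 to Nr1h2 reads, not corrected for length, was -4.57, -3.57 and -4.29 in monocytes and -4.14 ± 0.52 (SD, n = 3) on average. It was -1.53 ± 0.11 in DN, -1.16 ± 0.09 in SP and -1.24 ± 0.09 in DP macrophages (SD, n = 4 each). Monocyte libraries lay below all macrophage libraries, and DN libraries, at -1.67 to -1.41, lay below those of both CD4+ subsets, at -1.29 to -1.07. By a two-sided exact permutation test, the differences from monocytes had p = 0.057 each, the smallest that 3 against 4 libraries allow, and the differences between DN and each CD4+ subset had p = 0.029, the smallest that 4 against 4 allow. After adjustment over the 6 comparisons these exact permutation p-values became 0.069, so none passed 0.05. The CD4+ subsets differed by 0.08 with an exact permutation p of 0.17.

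Rxra, the partner of the LXRs and of PPARγ, was lowest in DN macrophages and rose across the subsets. It was 128, 171 and 142 CPM in monocytes, 85.2, 91, 83.6 and 75.9 CPM in DN macrophages, 115, 125, 133 and 123 CPM in SP macrophages and 167, 160, 176 and 193 CPM in DP macrophages. The 3 subsets did not overlap, whereas monocyte values ran from within the SP range into the DP range. Each step was called: 0.56 ± 0.10 on the log2 scale from DN to SP (adjusted p 0.0012), 0.49 ± 0.10 from there to DP (adjusted p 0.0069) and 1.05 ± 0.10, or 2.07-fold, over both (adjusted p 7.5e-07). Against monocytes, DN macrophages were lower (log2 fold change -0.81 ± 0.10, adjusted p 3.6e-06). The calls against monocytes in SP macrophages (-0.25 ± 0.10, adjusted p 0.045) and DP macrophages (0.24 ± 0.10, adjusted p 0.047) were marginal and were lost in 18 and 6 of 22 alternative analyses (the first at -0.09 without monocyte replicate 2).

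PPARγ transcripts were 1.85-fold to 1.92-fold more abundant in macrophages than in monocytes, with nearly equal means in the 3 subsets. Pparg was 8.39, 9.93 and 9.35 CPM in monocytes. It ranged from 15.7 to 19.4 CPM in DN, 15.7 to 20.8 CPM in SP and 15 to 20.2 CPM in DP macrophages, so that all 12 macrophage libraries lay above the monocytes and the subsets overlapped throughout. The log2 fold changes against monocytes were 0.94 ± 0.13, 0.94 ± 0.13 and 0.89 ± 0.13 (adjusted p 8.3e-06, 6.6e-06 and 1.1e-05). Between subsets the log2 fold changes lay between -0.05 and 0.0048, with 95% intervals that all lay between -0.30 and 0.25.

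All 3 NR4A receptors were highest in DN macrophages. Nr4a1 (Nur77), which in monocytes is known for its part in forming the Ly6Clow type, was 434, 596 and 474 CPM in Ly6Chi monocytes. It was 1690, 1870, 1510 and 1430 CPM in DN macrophages, 818, 930, 1310 and 981 CPM in SP macrophages and 1010, 774, 1050 and 884 CPM in DP macrophages. The DN libraries lay above all others, and both CD4+ subsets overlapped while staying above monocytes. Nr4a1 fell by 0.69 on the log2 scale (SE 0.15, adjusted p 0.0056) from DN to SP and by 0.80 (SE 0.15, adjusted p 0.00072) to DP macrophages, with -0.12 ± 0.15 between the CD4+ subsets (95% interval -0.43 to 0.19, adjusted p 0.75). Against monocytes it was 3.24-fold, 2.01-fold and 1.86-fold higher in the 3 subsets (adjusted p 1.4e-07, 3.6e-05 and 0.00011).

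Nr4a2 (Nurr1) gave the most even steps of the 10 genes. It was 0.581, 0.447 and 0.669 CPM in monocytes, from 82, 46 and 36 reads. In macrophages it was 89.2, 86.4, 108 and 77.3 CPM (DN), 47.1, 48, 46.5 and 47 CPM (SP) and 24.2, 27.2, 25.9 and 24 CPM (DP). No 2 populations overlapped, and the coefficient of variation between replicates was only 1.35% in SP macrophages. The log2 fold changes were -0.93 ± 0.10 for the first step (adjusted p 1.4e-05), -0.90 ± 0.10 for the second (adjusted p 3.3e-05) and -1.83 ± 0.10 over both (adjusted p 2.4e-09), a 3.55-fold difference. Even the lowest subset exceeded monocytes by 44.8-fold.

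Nr4a3 (Nor-1) showed the same order with wider spread. Monocytes held 29, 0 and 6 reads, or 0.205, 0 and 0.111 CPM, where 0 reads allow up to 0.0292 CPM (3 counts, counting error only). Macrophages had 125, 139, 126 and 99.4 CPM (DN), 68.5, 86.3, 109 and 101 CPM (SP) and 40.2, 53.7, 89.6 and 61.2 CPM (DP). Neighbouring subsets overlapped, and the outer ones did not. Only the outer difference was called, at -1.0 ± 0.26 on the log2 scale (adjusted p 0.01), and it missed the threshold with DESeq2 (adjusted p 0.081). The steps were -0.42 ± 0.26 (adjusted p 0.37) and -0.58 ± 0.26 (adjusted p 0.31). Over monocytes the log2 fold changes were 10.03, 9.61 and 9.03, values that rest on few monocyte reads.

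Immediate early genes, which digestion of a tissue can induce, were high in every macrophage library. All 15 genes of a list of immediate early and dissociation genes were higher in each macrophage subset than in monocytes. Of all genes, 37.3%, 39.1% and 39.5% were higher in DN, SP and DP macrophages. Summed levels of the list were 1140 to 1420 CPM in monocytes, 38000 to 44900 CPM in DN, 32900 to 45900 CPM in SP and 32100 to 37400 CPM in DP macrophages. Fos averaged 195 CPM in monocytes and 6590, 6680 and 6200 CPM in the subsets. The part of this program in the NR4A differences from monocytes was not tested. From DN to DP macrophages 6 of the 15 fell and none rose, beside 11.9% of all genes lower and 11.3% higher, with a median log2 fold change of -0.18 over the list, and the summed ranges of the 2 subsets did not overlap. Egr3 (-1.92), Egr2 (-1.27), Egr1 (-0.65), Ier2 (-0.65), Atf3 (-0.47) and Btg2 (-0.36) were called, whereas Fos (-0.09), Fosb (-0.11), Jun (-0.14) and Junb (-0.02) were not. Nr4a2, at -1.83, and Egr3 stood together at the far end of these genes.

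**Figure D3:**
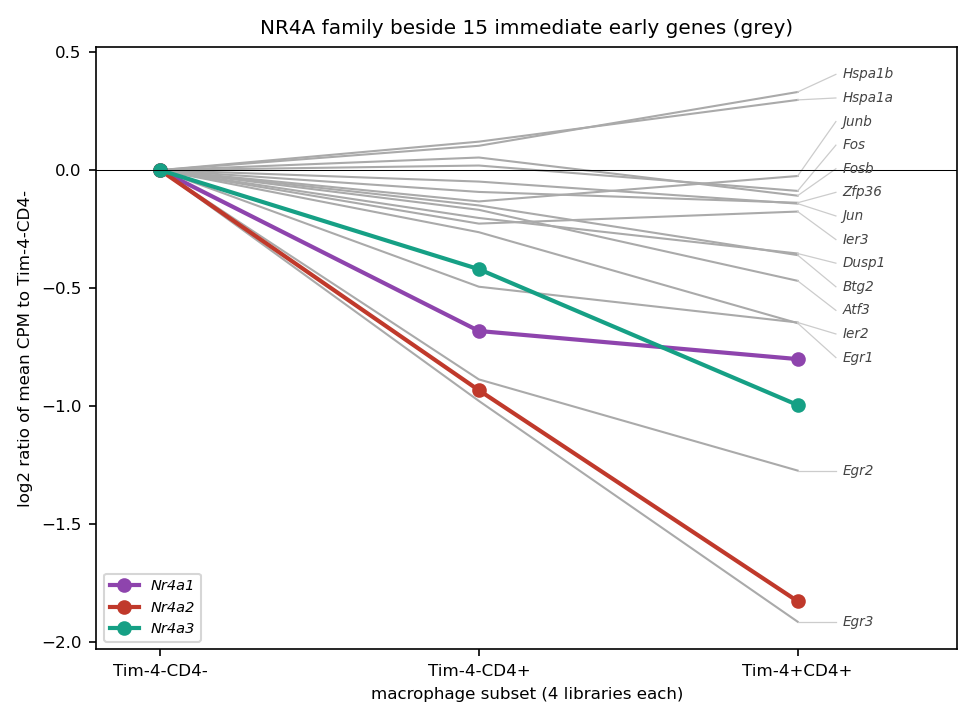
Log2 ratio of the mean CPM in each macrophage subset to that in Tim-4-CD4- macrophages (4 libraries each) for Nr4a1, Nr4a2 and Nr4a3 in colour and 15 immediate early and dissociation genes in grey. In Tim-4+CD4+ macrophages Nr4a2 and Egr3 lie lowest, the other called genes (Nr4a1, Nr4a3, Egr1, Egr2, Ier2, Atf3 and Btg2) also lie below 0, and Fos, Fosb, Jun and Junb, which were not called, lie near 0, the lowest of them being Jun at -0.14.

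Among the 3 member targets of LXR, Abca1 differed most from monocytes. It was 8.37, 11.3 and 13.9 CPM in monocytes, 273, 335, 222 and 222 CPM in DN macrophages, 256, 211, 239 and 249 CPM in SP macrophages and 89.9, 166, 330 and 173 CPM in DP macrophages. Every macrophage library exceeded every monocyte library, and DP macrophages had a coefficient of variation of 53.1%, the widest spread of a member in any macrophage subset. The means were 23.5-fold, 21.3-fold and 17-fold above monocytes (log2 4.56 ± 0.36, 4.42 ± 0.36 and 4.09 ± 0.35, adjusted p 9.1e-09, 1.1e-08 and 2.1e-08). No difference between subsets was called, the largest being -0.47 ± 0.27 for DP against DN macrophages (95% interval -1.05 to 0.11, adjusted p 0.24). Without DP replicate 3, the highest library, that difference was -0.87 and passed (adjusted p 0.0078), and without DP replicate 1, the lowest, it was -0.24 (adjusted p 0.48). With 10363 exon bases Abca1 is the longest of the members, and its lowest macrophage value, 89.9 CPM, was in DP replicate 1, the library low in long transcripts.

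Abcg1 followed neither Abca1 nor the monocyte to macrophage difference. It was 95, 115 and 101 CPM in monocytes, 99.1, 100, 83.9 and 94.9 CPM in DN macrophages, 87.3, 77.5, 83.7 and 90.2 CPM in SP macrophages and 115, 123, 124 and 114 CPM in DP macrophages. DP libraries lay above those of both other subsets, which overlapped each other. Abcg1 was higher in DP than in SP macrophages by 0.49 ± 0.08 on the log2 scale (adjusted p 0.0022) and than in DN macrophages by 0.33 ± 0.08 (adjusted p 0.009). Against monocytes the log2 fold changes were -0.13 ± 0.09 (DN, adjusted p 0.21), -0.29 ± 0.09 (SP, adjusted p 0.0093, not called without monocyte replicate 2) and 0.20 ± 0.09 (DP, adjusted p 0.063, called in 13 of 22 alternative analyses). Per kilobase, Abcg1 exceeded Abca1 in monocytes (14.3 against 1.08 CPM) and the order was turned in DN macrophages (12.9 against 25.4 CPM).

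Mylip rose from monocytes to macrophages in each subset. It was 19, 22.3 and 26.1 CPM in monocytes, 55.9, 67.8, 50.1 and 50.9 CPM in DN macrophages, 48.3, 49.7, 60.2 and 51.1 CPM in SP macrophages and 58.1, 70.3, 80.6 and 67.3 CPM in DP macrophages. Monocytes lay below all macrophages and the subsets overlapped. The means were 2.5-fold, 2.33-fold and 3.07-fold above monocytes (adjusted p 3.8e-07, 8.3e-07 and 2.7e-08). DP macrophages differed from SP by 0.40 ± 0.12 (adjusted p 0.11) and from DN by 0.30 ± 0.12 (adjusted p 0.10), and both passed without DP replicate 1 (0.48, adjusted p 0.048, and 0.38, adjusted p 0.035). Of 3 receptors that the Mylip protein targets, 1 was higher and 2 were lower than in monocytes in DN macrophages, and 1 was higher and 1 lower in each of SP and DP macrophages. In the same comparisons 65.4%, 69.8% and 70.9% of all genes were called. Vldlr, the one higher, was at 0 reads in monocytes and averaged only 0.114, 0.17 and 0.16 CPM in the subsets. Lrp8, lower in each subset, averaged 3.52 CPM in monocytes and 0.98, 0.518 and 0.448 CPM in the subsets. None of the 3 was called between subsets.

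Other LXR targets did not share 1 direction. Of 17 tested genes on a list of 18, 8 were higher and 6 lower in DN macrophages than in monocytes, beside 37.3% and 28.1% of all genes. Their median log2 fold change of 0.07 was close to the 0.08 of all genes. Mertk, the receptor for apoptotic cells, rose from 1.02 to 111 CPM, Apoe, which carries exported cholesterol, from 1410 to 25200 CPM, Pltp, which transfers phospholipids, by 3.24 on the log2 scale, Scd1, a fatty acid desaturase, by 4.18 and Arl4c by 1.5. Smpdl3a (-2.70), Lpl (-1.36), Elovl5 (-0.81), Acaca (-0.59) and Srebf1 (-0.55), the last encoding the master regulator of fatty acid synthesis, were lower. The same 8 and 6 counts were found in SP macrophages, beside 39.1% and 30.7% of all genes, and 8 and 7 in DP macrophages, beside 39.5% and 31.3%.

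From DN to DP macrophages, 3 of the 17 targets rose and 4 fell, beside 11.3% and 11.9% of all genes. Their median log2 fold change was 0.01. Mertk rose (0.84 ± 0.155, adjusted p 0.00076), as did Apoc1 (2.42) and Cd5l (2.78), which average under 1 CPM over all libraries and are named here after their values were seen. Lpl, which frees fatty acids from lipoproteins (-1.33), Pltp (-0.76), Elovl5, which elongates fatty acids (-0.67), and Smpdl3a (-0.35) fell. From DN to SP macrophages Mertk rose (0.62) and Lpl (-1.16), Pltp (-0.49) and Elovl5 (-0.37) fell, beside 4.52% and 5.53% of all genes. From SP to DP macrophages only Apoc1 was called, from 0.108 to 1.10 CPM, beside 2.07% of all genes higher and 1.34% lower.

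**Figure D4:**
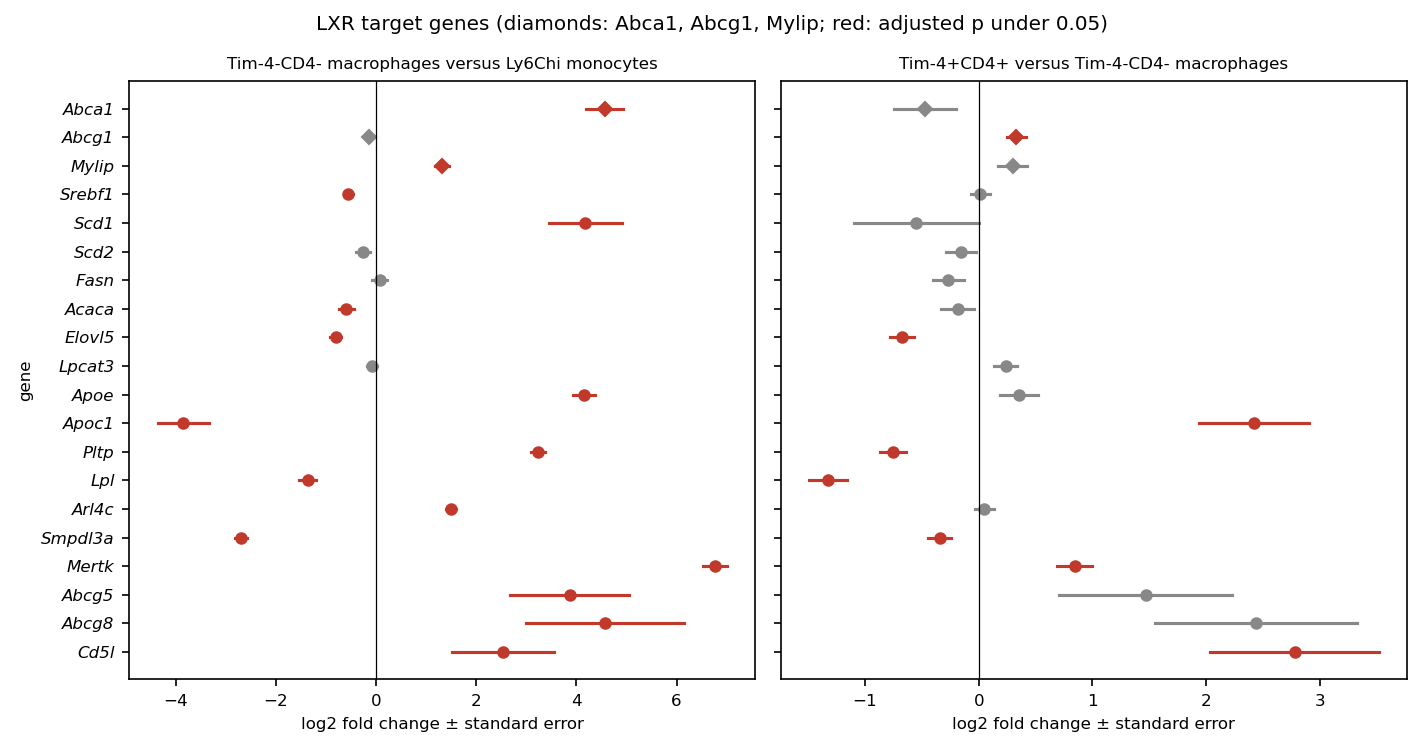
Log2 fold changes with standard errors of Abca1, Abcg1 and Mylip (diamonds) and 17 other LXR targets (circles), for Tim-4-CD4- macrophages against monocytes and for Tim-4+CD4+ against Tim-4-CD4- macrophages, red where the adjusted p is under 0.05. Targets lie on both sides of 0 in both panels, from Mertk at 6.77 to Apoc1 at -3.85 on the left and from Cd5l at 2.78 to Lpl at -1.33 on the right.

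Enzymes that make or remove the sterol ligands of LXR also changed in both directions. Of 8 such genes, 4 were higher and 3 lower in DN macrophages than in monocytes, beside 37.3% and 28.1% of all genes. Ch25h, which makes 25-hydroxycholesterol, averaged 0.00944 CPM in monocytes, with at most 1 read in a library, and 10.9, 6.10 and 3.54 CPM in the subsets in the order DN, SP and DP. Its difference between the outer subsets was -1.61 on the log2 scale (adjusted p 0.0022), with the subset means in the same order as those of Nr4a2. Cyp27a1, which makes 27-hydroxycholesterol, was 152 CPM in monocytes and 217, 232 and 270 CPM in the subsets (log2 0.51, 0.61 and 0.83 over monocytes, adjusted p 0.0057, 0.0015 and 9.8e-05), with no call between subsets. Cyp39a1, a hydroxylase that acts on 24-hydroxycholesterol, was lower in each subset, at 21 CPM in monocytes against 1.73, 1.18 and 0.491 CPM, and was also lower in DP than in SP macrophages (-1.25, adjusted p 0.0047).

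PPAR targets gave a similar picture, with 4 of 8 higher and 3 lower in DN macrophages than in monocytes, beside 37.3% and 28.1% of all genes. The fatty acid transporter Cd36 was highest in DN macrophages, at 154 CPM against 24.4 CPM in monocytes, 89.7 CPM in SP and 96.9 CPM in DP macrophages, and fell by 0.78 on the log2 scale at the first step (adjusted p 0.00051). Angptl4, an inhibitor of lipoprotein lipase, rose at each step, from 2.59 through 5.47 to 10.9 CPM (log2 1.07 and 1.0, adjusted p 0.0059 and 0.018). No PPAR target was called at the second step without DP replicate 1. The lipid droplet protein gene Plin2 was higher in each subset than in monocytes (264 against 522, 536 and 641 CPM) without a call between subsets. The fatty acid oxidation genes Cpt1a (-1.12) and Acaa2 (-1.15) were lower in DN macrophages than in monocytes.

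Within the nuclear receptor superfamily of 49 listed genes, 39 were in the table and 32 were tested. Per kilobase, Nr4a1 was at rank 1 of the 39 in every population, at 143 CPM in monocytes and 462, 288 and 265 CPM in the subsets. Nr1h2 was at rank 3 in monocytes and rank 2 in each subset, and Pparg was at rank 13 in all 4. Nr1h3 moved from rank 16 in monocytes to 9, 6 and 5 in the subsets, Rxra went from rank 5 to 8, 4 and 3, Nr4a2 from 21 to 4, 9 and 12 and Nr4a3 from 23 to 6, 8 and 10. Rank is a description of means and neighbours in it were not tested.

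**Figure D5:**
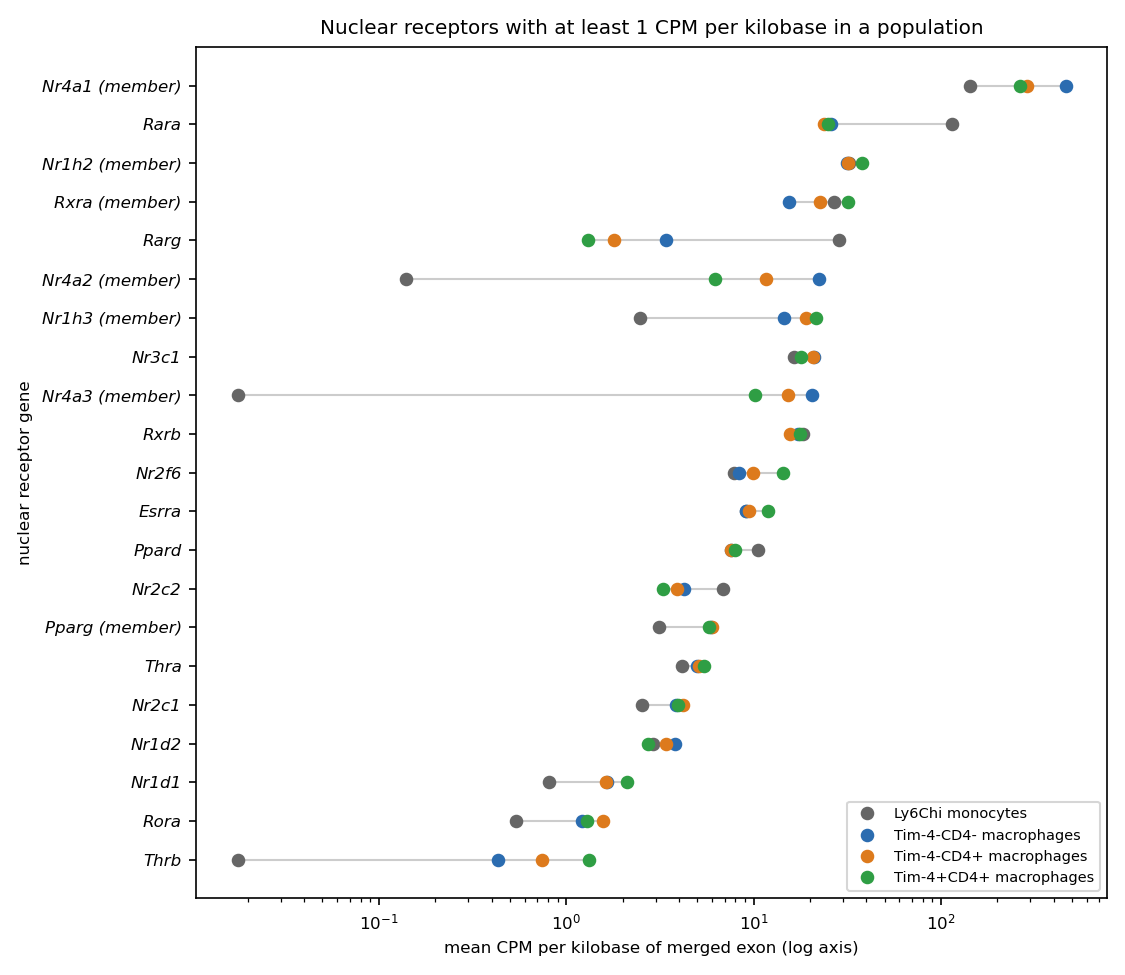
Mean CPM per kilobase of merged exon (log axis) in the 4 populations for nuclear receptor genes that reach 1 CPM per kilobase in at least 1 of them. Nr4a1 is the highest receptor in each population, and the widest spans between monocytes and macrophages are those of Nr4a3 and Nr4a2.

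Of the 42 receptors that are not members, 25 were tested. In DN macrophages 14 were higher and 5 lower than in monocytes, beside 37.3% and 28.1% of all genes. The counts were 15 and 5 in SP macrophages, beside 39.1% and 30.7%, and 16 and 6 in DP macrophages, beside 39.5% and 31.3%. The retinoic acid receptors Rara and Rarg fell, from 498 to 113 CPM (log2 -2.13) and from 121 to 14.5 CPM (log2 -3.05) in DN macrophages, and Rarg fell further to 5.52 CPM in DP macrophages. Esr1 (-0.82), Nr2c2 (-0.69) and Ppard (-0.48) were the others lower there. Higher in DN macrophages than in monocytes were Thrb (log2 4.56), the orphan receptor gene Rora (1.15), the clock gene Nr1d1 (1.03), Vdr (1.02) and Nr2c1 (0.59), and Nr3c2, with at most 1 read in a monocyte library, averaged 0.754 CPM.

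Between the outer macrophage subsets 5 of the 25 receptors rose and 4 fell, beside 11.3% and 11.9% of all genes. Higher in DP than in DN macrophages were the mineralocorticoid receptor gene Nr3c2 (0.754 against 3.17 CPM, log2 2.08), the thyroid hormone receptor gene Thrb (3.19 against 9.84 CPM, log2 1.62), Nr2f6 (0.77) and Esrra (0.39). The estrogen receptor gene Esr1 fell from 6.14 to 0.794 CPM (log2 -2.93), the vitamin D receptor gene Vdr from 5.45 to 1.49 CPM (-1.87), and Rarg (-1.40) and Nr1d2 (-0.49) were lower as well. Without DP replicate 1 the counts were 5 and 3. Vdr stepped down like Nr4a2, at -0.94 (adjusted p 0.0051) and -0.92 (adjusted p 0.014). Rarg (-0.93) was the other receptor lower in SP than in DN macrophages. These were 2 of the 25, with none higher, beside 5.53% of all genes lower and 4.52% higher. Nr2f6 (0.52) and Esr1 (-2.35) were the others called between the CD4+ subsets. With Vdr this made 1 of the 25 higher and 2 lower, beside 2.07% and 1.34% of all genes.

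Of 15 coregulators through which nuclear receptors act, all tested, 2 were higher and 6 lower in DN macrophages than in monocytes, beside 65.4% of all genes called in that comparison. The corepressor Nrip1 rose from 36.4 to 121 CPM (log2 1.74). The corepressor Ncor1, which shuts LXR targets in the absence of ligand, was lower (-0.70, adjusted p 0.0097), and the coactivator Ppargc1b was higher (2.04). Between subsets, none was called in either neighbouring step, where 10.1% (SP against DN) and 3.41% (DP against SP) of all genes were called. Ncoa1 (-0.47) and Tbl1xr1 (-0.50), 2 of the 15, were lower in DP than in DN macrophages, beside 11.9% of all genes. That share of the list was near that of all genes. The summed level was 881 CPM in DP replicate 1 and reached 1680 CPM in others of that subset. Without it the 2 lower calls between the outer subsets remained 2 in number.

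Enzymes of retinoid metabolism, which set the supply of ligand for the retinoic acid receptors, were higher than in monocytes in 6 of 8 tested genes in each subset, where 37.3%, 39.1% and 39.5% of all genes were higher in DN, SP and DP macrophages. Dhrs3, which turns retinal back to retinol, averaged 30 CPM in monocytes and 164, 160 and 168 CPM in the subsets. Aldh1a2, which makes retinoic acid, averaged 0.211 CPM in monocytes and 8.58, 4.53 and 3.80 CPM in the subsets, lower in DP than in DN macrophages (-1.18, adjusted p 0.019). Aldh1a3, at 0 reads in monocytes, averaged 3.83, 4.29 and 6.84 CPM and rose between those subsets (0.84, adjusted p 0.023).

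Transcripts of other cell types moved with some of these differences. Of all genes, 11.3% rose and 11.9% fell from DN to DP macrophages. Dendritic cell markers fell in 2 of 5 genes from DN to DP macrophages, as the NR4A genes did: Flt3 averaged 8.65, 0.83 and 0.572 CPM and Itgae 9.61, 2.91 and 2.20 CPM over the subsets, while Clec9a (29.2, 25.6 and 27.4 CPM) and Xcr1 (2.83, 2.61 and 2.62 CPM) were not called, and the summed list was 39.8 to 75.5, 28.8 to 37.0 and 28.5 to 43.2 CPM. Mesenchymal markers rose in 4 of 6 genes (3 without DP replicate 1), as Rxra did, with sums of 60.8 to 92.2, 73.2 to 94.5 and 101 to 139 CPM. Epithelial markers rose in 5 and fell in 1 of 10 genes (5 and 0 without DP replicate 1), with sums of 9.87 to 27.6, 16.2 to 19.9 and 16.7 to 25.1 CPM. Of 5 endothelial markers only Pecam1 was called (104, 185 and 305 CPM), which leucocytes also make. None of 6 T cell and 6 B and plasma cell markers was called between the outer subsets, with sums of 2.48 to 6.03 and 4.81 to 7.10 CPM for T cells and 280 to 420 and 239 to 428 CPM for B and plasma cells. Of the enteric neuron and glia markers, Elavl4 rose among 6, and of the neutrophil and eosinophil markers, Siglecf among 6. The summed T cell, B and plasma cell, epithelial, mesenchymal, endothelial and neuronal lists were higher in each macrophage library than in any monocyte library, and among defining genes S100a9 was at 0 in both CD4+ subsets and S100a8 in DN macrophages. The part of these cells in the differences of the members was not tested.

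Across the 12 macrophage libraries, each member had genes with a closely similar pattern of log2 CPM, given as Pearson's r over libraries that share 3 subsets. Nr4a2 was most like Alcam (r = 0.993), Map4k1 (0.987) and Itgb7 (0.987), and Rxra was most like H2-M2 (0.983), Kcnj16 (0.982) and Ermap (0.981). Nr4a1 was nearest to Sun2 (0.98), Maff (0.977) and Mta3 (0.975), Nr4a3 to Kdm2b (0.946), Eif4b (0.944) and Ldlrad4 (0.943), and Nr1h3 to Pip4k2c (0.975), Icosl (0.966) and Exoc3l4 (0.965). Nr1h2 was nearest to Tsr3 (0.965), Palm (0.956) and Lin37 (0.953), and Abca1 to Ubxn7 (0.98), C2cd3 (0.971) and Rest (0.97). Among macrophage libraries Nr1h2 was highest (161 CPM) and Abca1 lowest (89.9 CPM) in DP replicate 1, the library that stood apart by transcript length. How far these r values rest on that library was not tested. Abcg1 (Cxcl12, 0.92, Nck2, 0.904, and Edil3, 0.892), Mylip (Mxi1, 0.9, Casc3, 0.897, and Fam53b, 0.893) and Pparg (Igkv8-28, 0.855, and Gm43914, 0.789) had looser matches. The Nr4a2 and Rxra patterns were thus the ones most closely followed by other genes, and that of Pparg, which did not separate the subsets, the least.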

How the data were processed

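Sorted cells of 4 populations were sequenced as strand-specific mRNA libraries. Per the labels and the study's methods, the authors trimmed reads with Trimmomatic 0.36, aligned them with STAR to GRCm38.p4 and deposited counts of unique reads per gene made with HTSeq 0.6.1p1. The strand setting of the counting is not given in the sources used here. The authors also deposited a signal, the same counts divided by 1 size factor per library, which was not tested. Total counts were 39388763 to 151510641 per library.

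From the counts, genes were filtered with filterByExpr by population, scaled with TMM and tested in 1 edgeR 4.0.16 fit (R 4.3.3) of all 15 libraries with population as the only term, using the quasi-likelihood test and Benjamini-Hochberg adjustment over 15802 genes at 0.05. Standard errors are the log2 fold change divided by the square root of F. The script was tested on simulated counts. The log2 ratio of Nr1h3 to Nr1h2 was compared with an exact permutation test. Likeness used log2 CPM with a prior count of 2. Exon lengths and positions came from GENCODE M21 on GRCm38 (19421 of 19456 identifiers matched) and promoters from RefSeq on GRCm38.p6, which were given for all members but Abcg1. The median deviation by exon length was added after the data were seen.

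The members and gene lists were chosen with earlier results of these data known. List genes are named when called and at a mean of at least 1 CPM, at most 6 in each direction by log2 fold change, and likeness names 3 genes per member. Some genes that this rule would name are not reported here. Replicates were separate sorts of pooled mice. Replicate numbers in the sample titles and descriptions disagree for Tim-4-CD4+ macrophages, and title numbers are used. DESeq2 1.42.0, other scalings, no filter, 2-population fits, replicate blocks and leaving out each library were tried. No 2 replicates agreed within counting noise (chi-square per degree of freedom at least 22.1).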

Additional observations from a re-analysis of the deposited data

Results flagged for a closer look

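The log2 ratio of Nr1h3 to Nr1h2 in Tim-4+CD4+ macrophages replicate 3 was -1.1, above the other 3 libraries of its subset at -1.29 to -1.26. Its gap to the nearest library was 0.846 of the range, beyond the 95% critical value of Dixon's test for 4 samples. Of 33 groups of values examined this was the 1 that stood out, and chance gives about 1 in 20.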

How the results depend on the processing

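Each of the 60 log2 fold changes of the 10 genes was computed under 22 alternatives. Of the 37 that were called, 33 kept their direction and call in all 22 and none changed direction. Those that lost a call were Nr4a3 between the outer macrophage subsets (DESeq2), Abcg1 in SP macrophages against monocytes (-0.21 with upper-quartile scaling) and Rxra in both CD4+ subsets against monocytes. Of the 23 that were not called, 7 passed in some alternatives: Abcg1 (13 of 22) and Nr1h2 (3) in DP macrophages against monocytes, Mylip (3), Abca1 (1) and Nr1h2 (1) in DP against DN, Mylip in DP against SP (1) and Nr1h3 in SP against DN (1). The causes were not tested. Upper-quartile scaling moved the median of all genes against monocytes to 0.15, 0.19 and 0.21, from 0.08, 0.11 and 0.10, and between subsets by less than 0.05.

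Uncalled values near 0 changed sign. Nr1h2 in DN macrophages against monocytes became 0.034 with upper-quartile scaling and 0.011 with only those populations fitted, and ranged over -0.065 to 0.067 when each library was left out. In SP macrophages against monocytes it became 0.031 with DESeq2, 0.030 with relative log expression factors, 0.066 with upper-quartile scaling and 0.0081 with the replicate block on title numbers (-0.065 to 0.088 leaving out libraries). Leaving out libraries, the other uncalled values that changed sign ranged from -0.18 to 0.0031 for Mylip, -0.049 to 0.062 for Nr1h2 and -0.076 to 0.056 for Pparg in SP against DN, from -0.13 to 0.014 for Pparg in DP against DN, and from -0.14 to 0.036 for Pparg and -0.20 to 0.044 for Nr4a1 in DP against SP macrophages.

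With the replicate block, Pparg in SP against DN macrophages became -0.0032 (title numbers) and -0.0023 (description numbers). Called genes between those subsets numbered 1294 and 1575 in place of 1589. The deviations of same-numbered macrophage libraries from their subset means correlated at -0.12 to 0.13 by title (2 of 12 pairs over 0.1) and -0.09 to 0.16 by description (4 of 12). The study describes independent sorts of pooled mice, so subsets of the same sort may share their mice. These correlations cannot decide that, and the libraries were not treated as pairs in the main tests. By description, the 3 pairs numbered 4 lay at 0.13 to 0.16.

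Over all genes, 1589 were called between SP and DN macrophages (1033 to 2203 leaving out libraries, the lowest without SP replicate 4 and the highest without DP replicate 1). Between the CD4+ subsets 539 were called, and 917 with DESeq2. Depth limits only Nr4a2 and Nr4a3 in monocytes.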
